A study of Rattus norvegicus with 48 samples.

Results

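A2a neurons of the nucleus accumbens core were compared between rats that had self-administered cocaine and rats that had self-administered saline. Tissue punches were taken 1 day after the last of 10 sessions. The comparison used 16 of the 48 libraries of the series, 8 from A2a:Cre rats given cocaine and 8 from A2a:Cre rats given saline, each library coming from the brain of a separate rat. The members were chosen by their sample titles, and cocaine replicate 7, with a total of 5.29 M counts, was left out of the main test, leaving 7 cocaine and 8 saline libraries. D1:Cre rats given cocaine (8 libraries) or saline (8 libraries) and killed on the same day gave the same contrast in D1 neurons. The rats were adults of both sexes, and their sex per library and their exact age were not given in the labels. Translating ribosome affinity purification (TRAP) pulled down RNA with antibodies against green fluorescent protein, so the counts are of ribosome-bound RNA and depend on which cells carried the tag. How the tag was delivered to the Cre-expressing cells was not given in the labels.

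Medium spiny neurons are the inhibitory projection neurons that make up most of the accumbens. Those that express the adenosine A2a receptor and the dopamine D2 receptor also make enkephalin and form the indirect pathway, while those that express the dopamine D1 receptor make dynorphin and substance P and form the direct pathway. Cocaine raises extracellular dopamine, which acts on D1 receptors to excite and on D2 receptors to inhibit the adenylyl cyclase pathway. Rats that have self-administered cocaine seek its cues more strongly as withdrawal goes on, and day 1 is the early time point against which such incubation is measured.

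The marker genes were at levels that went with the label. Penk, the enkephalin precursor gene, had 8338 to 10464 CPM (counts scaled to the same library total; lowest to highest, median 9109) in the 7 cocaine libraries and 7254 to 9999 CPM (median 8227) in the 8 saline libraries, against 626 to 1605 CPM in the 16 D1 libraries. Drd2, the dopamine D2 receptor gene, had 572 to 705 CPM after cocaine and 563 to 681 CPM after saline, and its highest D1 library was at 130.2 CPM. Drd1, the dopamine D1 receptor gene, was at 32.4 to 46.7 CPM after cocaine and 31.9 to 51.5 CPM after saline, below every D1 library (113.7 to 247.6 CPM). The other markers of the A2a kind, Adora2a, Gpr6, Gpr52 and Sp9, were also higher in every A2a than in every D1 library, and Pdyn, Chrm4 and Isl1, markers of the D1 kind, were lower. Markers of microglia, astrocytes and oligodendrocytes were present at summed levels of 133.1 to 588.7, 1735 to 2162 and 3839 to 5174 CPM after cocaine and 198.9 to 641.9, 1388 to 2223 and 3522 to 5317 CPM after saline. The 7 cocaine libraries held 28.0 to 42.9 M counts and the 8 saline libraries 34.2 to 42.9 M. In bulk RNA of this kind, fewer cells of a type and less RNA per cell cannot be told apart.

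No gene passed the test in A2a neurons on day 1. Of 15683 genes tested with edgeR's quasi-likelihood test, 0 had an adjusted p under 0.05 (0% called), and the smallest adjusted p was 0.166. DESeq2 and limma-voom also called 0 genes. At an unadjusted p under 0.05, edgeR had 779 genes, DESeq2 806 and limma-voom 800. Of the 779, 409 were higher after cocaine (2.61% of those tested) and 370 were lower (2.36%). The median log2 difference (cocaine minus saline) over all tested genes was -0.0085, and 7378 genes (47%) lay above 0. In 3 genes (0.0191%) all 7 cocaine libraries were above all 8 saline libraries, and in 2 genes (0.0128%) all 7 were below. The 3 genes were Wwc2, Phax and Dlx5, and the 2 were ND4 and Patz1.

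The depth and the number of rats limited which differences could have been seen. Over all tested genes, the 95% interval of the log2 difference, taken per gene without adjustment, reached a median of 0.26 to either side. For 9057 genes whose mean log2 CPM was 3 or more, it reached a median of 0.16 to either side, and its upper quartile was 0.22. For 8776 of these genes (96.9%) the whole interval lay within a 1.5-fold difference in either direction.

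Among named genes of that level, those with the smallest p had log2 differences between -0.33 and 0.28, except RGD2320734, ND4 and RGD1359290. RGD2320734, annotated as cytochrome b-c1 complex subunit 9-like, a protein of respiratory complex III, had 8.68 to 17.4 CPM (median 10.6) after cocaine and 4.67 to 9.37 CPM (median 7.36) after saline. Its log2 difference was 0.68 ± 0.15 (SE; edgeR adjusted p = 0.166), and 4 of the 7 cocaine libraries lay above all saline libraries. Without cocaine replicate 1, which held the highest value, the difference was 0.54. Symbols that begin with RGD or LOC are provisional, and reads of such genes may be shared with a near-identical copy.

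Slc39a14, a zinc and manganese transporter gene, had 22.0 to 26.1 CPM (median 25.2) after cocaine and 18.2 to 22.7 CPM (median 20.1) after saline, a log2 difference of 0.28 ± 0.07. Map4, a gene for a protein that binds microtubules, had 377.5 to 439.5 CPM (median 413.5) after cocaine and 299.1 to 383.1 CPM (median 340.9) after saline, a log2 difference of 0.27 ± 0.07. In both, 6 of 7 cocaine libraries lay above all 8 saline libraries. Wwc2, whose protein acts in the Hippo pathway, had 36.5 to 39.6 CPM (median 38.3) after cocaine and 29.7 to 35.4 CPM (median 34.1) after saline. Its groups did not overlap, at a log2 difference of 0.20 ± 0.06 (edgeR adjusted p = 0.806). The other 6 genes of this kind were Slc5a6 (biotin and pantothenate transport), Mtch2 (outer mitochondrial membrane), Wdr43 (ribosome biogenesis), Arpc5 (actin branching), Bad (cell death regulation) and Sra1, with log2 differences between 0.15 and 0.23.

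ND4, a mitochondrially encoded subunit of respiratory complex I, had 28.5 to 36.1 CPM (median 32.2) after cocaine and 37.4 to 81.1 CPM (median 48.8) after saline. Every cocaine library was below every saline library, and saline replicate 4 was the highest. The log2 difference was -0.72 ± 0.21 (edgeR unadjusted p = 0.0016, adjusted p = 0.806). It was -0.60 without saline replicate 4. ND4 in D1 neurons stood at 27.9 ± 9.40 CPM with cocaine, against 28.4 ± 12.5 CPM with saline (mean ± SD of 8 libraries each). The difference between the A2a and D1 effects was -0.69 ± 0.30 (edgeR unadjusted p = 0.0237, adjusted p = 1.00). Of the 13 mitochondrially encoded genes, ND4 included, 6 were above 0 and 7 below, with a median of -0.0034. COX1 and CYTB, of complexes IV and III, were at -0.04 and -0.0088, while ATP8, of the ATP synthase, was at 0.62 ± 0.24, with its highest value, 280.9 CPM, in cocaine replicate 1. Without that library the ATP8 difference was 0.23, and the median of the 13 genes was -0.13. Without saline replicate 4 that median was 0.06. In the mitochondrial genome ND4 overlaps ND4L and ATP8 overlaps ATP6, so the split of reads within each pair is uncertain. The 13 genes together summed to a median of 21022 CPM after cocaine and 21452 CPM after saline, so ND4 held a very small part of these counts. Why ND4 was low beside that sum was not tested.

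Tnk2, a non-receptor tyrosine kinase gene, had 170.3 to 197.6 CPM (median 177.8) after cocaine and 193.2 to 240.4 CPM (median 204.2) after saline, and 6 of 7 cocaine libraries lay below all saline libraries. Its log2 difference was -0.22 ± 0.06. Iqsec2, a gene for an exchange factor of the postsynaptic density, had 84.5 to 112.1 CPM (median 99.7) after cocaine and 108.6 to 128.9 CPM (median 114.8) after saline, a log2 difference of -0.24 ± 0.07. Plekhg5, Scaf1, Tnks1bp1, Ankrd13d and Dmwd had log2 differences between -0.33 and -0.15. RGD1359290 was at -1.91 ± 0.58, with saline replicates 4 and 5 at 39.4 and 36.6 CPM. The 7 cocaine libraries were at 2.49 to 3.94 CPM and the other 6 saline libraries at 2.31 to 3.90 CPM.

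**Figure D1:**
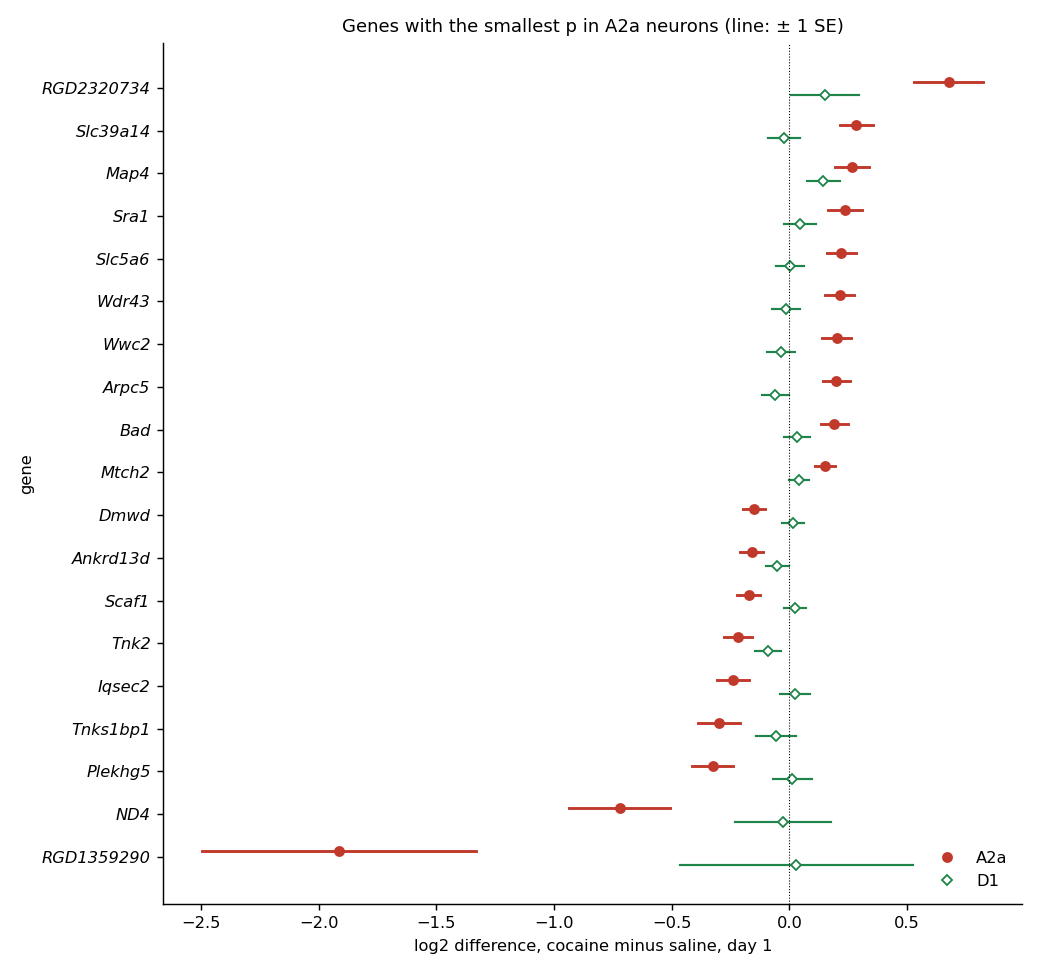
Log2 difference, cocaine minus saline on day 1 (x axis), of 19 of the named genes with the smallest p in A2a neurons (y axis), with A2a values as filled circles and D1 values as open diamonds, each with a line of 1 SE to either side. The A2a differences of all but RGD2320734, ND4 and RGD1359290 lie between -0.33 and 0.28. None of the 19 passed the adjusted threshold in either neuron type.

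Immediate early genes, which neurons transcribe within minutes of strong activity, lay mostly above 0 in A2a neurons. Of 18 genes listed, 15 were matched by name and all 15 were tested. Among these, 12 had a log2 difference above 0, against 47% of all genes tested, and the median was 0.22. Unadjusted p was under 0.05 in 4 members with a higher level after cocaine (Fos, Egr2, Nr4a3 and Egr1) and in 0 with a lower level. Across all genes tested, 2.61% were higher and 2.36% lower at that threshold. None of the 15 was called after adjustment over all genes. In D1 neurons 2 of the same 15 were above 0, against 51.1% of all genes tested, with a median of -0.08. Without saline replicate 7 the A2a median was 0.34.

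Fos, which encodes a subunit of the AP-1 transcription factor, had 17.6, 12.6, 11.8, 34.2, 8.89, 4.59 and 10.5 CPM in cocaine replicates 1 to 6 and 8. The 8 saline libraries had 4.53 to 13.1 CPM (median 6.79). Cocaine replicates 1 and 4 lay above all saline libraries, and the other 5 overlapped with them. The log2 difference was 0.99 ± 0.32 (95% interval 0.34 to 1.64; edgeR unadjusted p = 0.0037, adjusted p = 0.806). It was 0.61 without cocaine replicate 4 and 1.17 without saline replicate 7. Fos in D1 neurons stood at 8.87 ± 3.56 CPM with cocaine, against 9.39 ± 2.86 CPM with saline (mean ± SD of 8 libraries each), and the difference between the A2a and D1 effects was 1.07 ± 0.45 (edgeR unadjusted p = 0.021, adjusted p = 1.00).

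Egr2, a zinc finger transcription factor gene, had 8.67 to 28.6 CPM (median 12.6) after cocaine and 5.71 to 13.5 CPM (median 9.19) after saline, a log2 difference of 0.83 ± 0.31 (edgeR adjusted p = 0.915). Its relative Egr1 had 186.0 to 320.6 CPM (median 228.2) after cocaine and 159.3 to 247.6 CPM (median 197.4) after saline, a log2 difference of 0.29 ± 0.13. Nr4a3, an orphan nuclear receptor gene, had 5.56 to 17.3 CPM (median 7.66) after cocaine and 4.30 to 10.0 CPM (median 6.36) after saline, a log2 difference of 0.56 ± 0.26. In all 3 genes cocaine replicates 1 and 4 were the highest libraries, above every saline library. Arc, whose protein acts at the synapse, had 47.2 to 144.3 CPM (median 89.6) after cocaine and 39.5 to 92.1 CPM (median 65.5) after saline. Its log2 difference was 0.52 ± 0.26 (edgeR unadjusted p = 0.0558), and that of Nr4a1 was 0.45 ± 0.27. Fosb was at 0.22 ± 0.17 (0.11 without cocaine replicate 1) and Npas4 at 0.49 ± 0.34 (0.28 without cocaine replicate 4), while Jun (-0.19), Egr3 (-0.08) and Fosl1 (-0.22) were below 0.

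**Figure D2:**
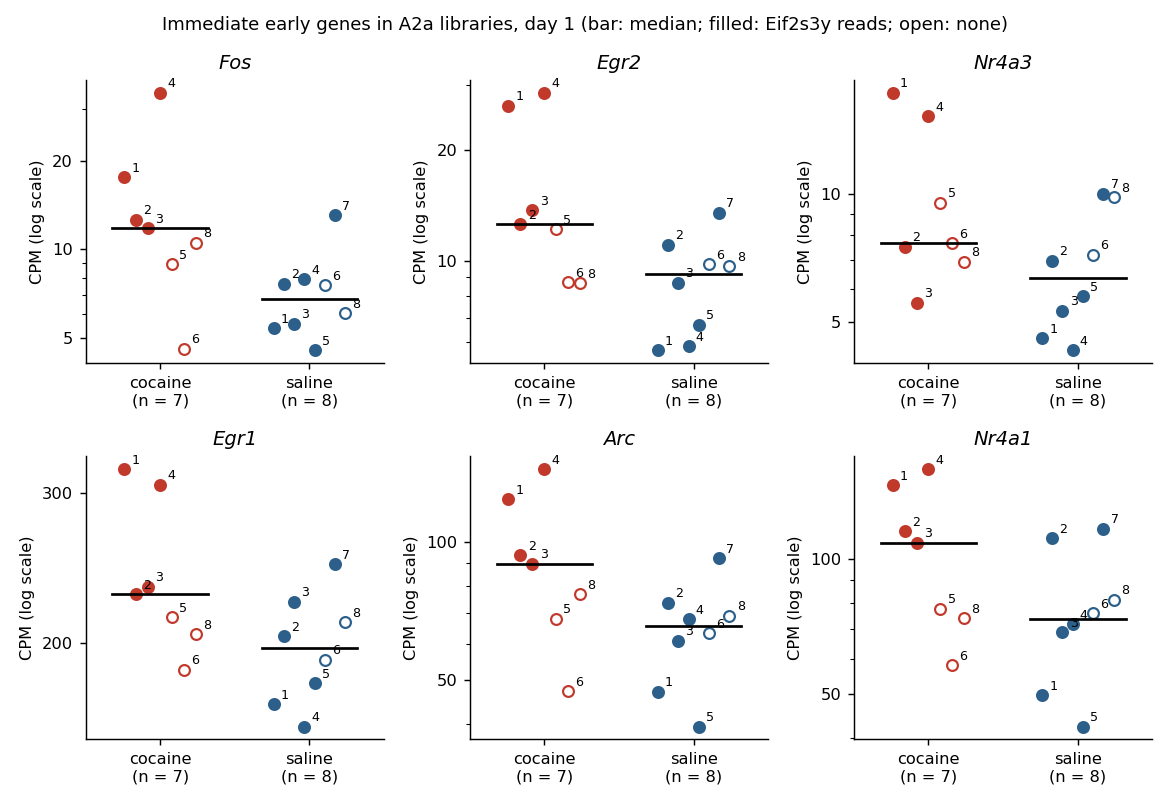
CPM on a log scale (y axis) of 6 immediate early genes in the 7 cocaine and 8 saline A2a libraries (x axis), with replicate numbers beside the points and a bar at each median. Filled points are libraries with Eif2s3y reads and open points are libraries with none. Cocaine replicates 1 and 4 are the highest cocaine libraries in all 6 genes, and the groups overlap in each.

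Eif2s3y and Kdm5d, genes of the Y chromosome, divided the libraries in a way that touches these values. Eif2s3y had 47.1 to 58.0 CPM in cocaine replicates 1, 2, 3 and 4 and 0 in replicates 5, 6, 7 and 8. It had 47.7 to 54.4 CPM in saline replicates 1, 2, 3, 4, 5 and 7 and 0 in replicates 6 and 8. Fos was at 11.8 to 34.2 CPM in the 4 cocaine libraries with Eif2s3y reads and at 4.59 to 10.5 CPM in the 3 without. Among saline libraries, Fos was at 4.53 to 13.1 CPM with Eif2s3y reads and at 6.05 and 7.54 CPM without. Arc showed the same order in cocaine libraries, at 89.6 to 144.3 CPM with Eif2s3y reads and 47.2 to 76.9 CPM without. With the Eif2s3y level as a term in the fit, the Fos difference was 0.99 ± 0.32 and the median of the 15 genes 0.22. Whether the cocaine difference itself differed between the 2 kinds of library was not tested.

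The sample descriptions of the day 1 libraries carry a middle number (89, 91 or 92) whose meaning the labels do not give. In the libraries numbered 89, which hold cocaine replicates 1, 2, 3, 5 and 6 and saline replicates 1, 2, 6 and 7, the Fos difference was 0.40 ± 0.38 and the median of the immediate early genes 0.20, with 10 of 15 above 0. Cocaine replicate 4, the highest for Fos, was the only A2a cocaine library numbered 91, and 92 held 1 library of each group in the test. With the number as a term, the Fos difference was 0.99 ± 0.31.

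Upstream sequence is shown for Egr2 and Egr1, the immediate early genes of unadjusted p under 0.05 for which RefSeq's promoter table of the GRCr8 build had an entry. Of the 15 genes tested, 9 had an entry. Capitals mark the core of the cAMP response element (CRE; TGACG on either strand) or a CArG box, the site of serum response factor. Each run is the 250 bases before the gene's start, on the gene's own strand. Egr2 lies on the minus strand at chr20:21054442-21054691, and Egr1 on the plus strand at chr18:26736828-26737077.
Egr2: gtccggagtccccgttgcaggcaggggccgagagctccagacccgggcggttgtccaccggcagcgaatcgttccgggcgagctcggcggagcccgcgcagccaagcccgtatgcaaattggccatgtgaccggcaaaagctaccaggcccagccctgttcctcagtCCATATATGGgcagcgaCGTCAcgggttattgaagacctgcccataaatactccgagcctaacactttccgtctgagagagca
Egr1: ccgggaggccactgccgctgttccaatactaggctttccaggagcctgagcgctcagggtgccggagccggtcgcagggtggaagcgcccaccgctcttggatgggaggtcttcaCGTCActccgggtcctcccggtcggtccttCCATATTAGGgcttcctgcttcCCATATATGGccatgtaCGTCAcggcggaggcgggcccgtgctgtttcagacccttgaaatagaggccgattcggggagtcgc
The Egr2 window held 1 CArG box 83 bases before the start and 1 CRE core 66 bases before it. The Egr1 window held CArG boxes at 105 and 83 bases and CRE cores at 135 and 66 bases. A CRE core lay in 6 of the 9 immediate early gene windows, against 25.5% of the 12396 windows of tested genes. A CArG box lay in 2 of the 9, against 1.26%. These are letter matches in a window, and binding was not measured.

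Later activity-response genes, which follow the immediate early wave, were split. Of 19 tested, 14 were above 0, with a median of 0.11 (0.07 without cocaine replicate 4). Gadd45g, a gene of the DNA damage and demethylation response, had 19.4 to 48.4 CPM (median 34.2) after cocaine and 20.5 to 34.5 CPM (median 25.6) after saline, a log2 difference of 0.36 ± 0.14. Sik1, a kinase gene induced by cAMP, was at 0.30 ± 0.13. Nptx2, which encodes a pentraxin secreted at excitatory synapses, lay the other way. It had 20.0 to 66.8 CPM (median 39.9) after cocaine and 24.1 to 94.6 CPM (median 61.8) after saline, a log2 difference of -0.51 ± 0.24. Bdnf, the brain-derived neurotrophic factor gene, had at most 0.29 CPM in any of the 15 A2a libraries, too little to compare.

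Genes that respond to glucocorticoid hormones were tested in 20 members, of which 15 lay above 0, with a median of 0.13. Without cocaine replicate 1 the median was 0.08. Unadjusted p was under 0.05 in 3, all higher after cocaine, against 2.61% of all genes tested. Klf9, a transcription factor gene, had 39.5 to 54.8 CPM (median 47.1) after cocaine and 32.4 to 48.0 CPM (median 40.4) after saline, a log2 difference of 0.26 ± 0.08. Sult1a1, a sulfotransferase gene, was at 0.61 ± 0.22, and Ddit4, an inhibitor of mTOR signalling, at 0.21 ± 0.10. Fkbp5, a well known target of the glucocorticoid receptor, was at 0.02 ± 0.10, Sgk1 at 0.15 ± 0.12 (0.09 without cocaine replicate 1) and Tsc22d3 at 0.09 ± 0.06. In D1 neurons 16 of the 20 were above 0, with a median of 0.08.

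Nuclear-encoded genes of the mitochondrial respiratory chain, which makes most of a neuron's ATP, lay above 0 in 64 of 73 members, against 47% of all genes. The differences were small, with a median log2 difference of 0.09. Unadjusted p was under 0.05 in 17 members, all higher after cocaine, against 2.61% of all genes tested, and 0 were called after adjustment. Ndufs5, an accessory subunit of complex I, had 141.1 to 201.6 CPM (median 188.1) after cocaine and 105.5 to 182.5 CPM (median 114.7) after saline. Saline replicates 1 and 2 held 172.1 and 182.5 CPM of it, and the other saline libraries 105.5 to 133.2 CPM. Single D1 libraries spread as widely, from 111.5 to 179.2 CPM with cocaine and from 105.7 to 184.7 CPM with saline. In A2a neurons the Ndufs5 log2 difference was 0.47 ± 0.15 (edgeR unadjusted p = 0.003, adjusted p = 0.806). There, 5 of 7 cocaine libraries lay above all saline libraries. Ndufa3 of complex I was at 0.28 ± 0.09, Atp5me of the ATP synthase at 0.29 ± 0.09, Cox7c of complex IV at 0.25 ± 0.08 and Uqcrb of complex III at 0.22 ± 0.08. The other 9 members lay below 0, among them Ndufs1 at -0.04, Sdha at -0.09 and Uqcrc1 at -0.05.

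Cytosolic ribosomal protein genes gave a like picture. Of 69 tested, 62 were above 0, against 47% of all genes, with a median of 0.08. In 5 members unadjusted p was under 0.05, all higher after cocaine, against 2.61% of all genes tested. Rpl19 was at 0.20 ± 0.07 and Rps21 at 0.20 ± 0.09. The mean level of each list per library, as its deviation from the mean over the 15 libraries, overlapped between groups. For the respiratory chain it ran from -0.10 to 0.16 (median 0.08) in cocaine libraries and from -0.19 to 0.17 (median -0.08) in saline libraries. For the ribosomal proteins it ran from -0.08 to 0.15 (median 0.04) in cocaine libraries and from -0.26 to 0.24 (median -0.01) in saline libraries. Saline replicates 5, 6 and 7 were the lowest in the ribosomal list, and saline replicate 3 the highest. Without saline replicate 6 the 2 median log2 differences were 0.06 and 0.05, and both were 0.12 without saline replicate 3. In the libraries whose middle number is 89 they were 0.15 and 0.14. With cocaine replicate 7 kept in the fit they were lower, at 0.055 and 0.054, with 54 and 61 members above 0. In D1 neurons both lists also lay above 0, in 68 of 73 members (median 0.06) and 56 of 69 (median 0.06).

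Upstream sequence is shown for Ndufs5 and Atp5me, which had the 2 largest log2 differences among the 17 members. RefSeq's table held entries for 62 of the 72 symbols tested. Capitals mark an NRF-1 motif (GCGC, any 2 bases and GCGC) or an ETS motif (CCGGAAG on either strand), motifs of factors that bind many such promoters. Ndufs5 lies on the minus strand at chr5:141264403-141264652 and Atp5me on the plus strand at chr14:1464610-1464859 of GRCr8.
Ndufs5: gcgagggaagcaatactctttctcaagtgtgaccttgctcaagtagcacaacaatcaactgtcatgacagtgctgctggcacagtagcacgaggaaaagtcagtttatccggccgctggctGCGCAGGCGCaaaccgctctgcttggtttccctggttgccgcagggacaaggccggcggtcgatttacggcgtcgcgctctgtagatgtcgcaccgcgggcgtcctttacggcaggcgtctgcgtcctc
Atp5me: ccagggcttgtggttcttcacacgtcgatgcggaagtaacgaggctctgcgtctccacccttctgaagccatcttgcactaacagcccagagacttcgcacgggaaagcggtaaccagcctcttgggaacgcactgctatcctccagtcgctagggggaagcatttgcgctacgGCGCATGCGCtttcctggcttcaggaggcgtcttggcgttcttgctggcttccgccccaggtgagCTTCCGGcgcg
The NRF-1 motif lay in 11 of the 62 windows (17.7%), against 9.9% of the windows of tested genes. The ETS motif lay in 17 (27.4%), against 12.9%.

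Interferon-stimulated genes, which cells switch on against viruses, lay below 0 in 26 of 28 members, with a median log2 difference of -0.47. Across all genes tested, 47% lay above 0. Only Dhx58, a cytosolic RNA sensor gene, had an unadjusted p under 0.05. It had 1.76 to 12.1 CPM (median 4.81) after cocaine and 4.06 to 31.5 CPM (median 6.98) after saline, a log2 difference of -0.82 ± 0.40. Without saline replicate 1, its highest library, the Dhx58 difference was -0.30. Usp18, which removes the ubiquitin-like protein ISG15, was at -0.84 ± 0.66. The spread between rats was wide: the list's mean deviation ran from -1.59 to 0.55 (median -0.02) in cocaine libraries and from -0.70 to 1.36 (median 0.08) in saline libraries. Cocaine replicate 1 was the lowest library and saline replicate 1 the highest, and without saline replicate 1 the median was -0.18. It was -0.69, with 0 of 28 above 0, with the first number of the sample description as a term, and -1.09 in the libraries whose middle number is 89. Genes of antigen presentation and complement were below 0 in 13 of 15 members, with a median of -0.18. That median was 0.14 without saline replicate 4 and -0.61 without cocaine replicate 4. Microglia markers were below 0 in 9 of 11 members (median -0.10), and cocaine replicate 1 was their lowest library too, at -1.12. Without it the median of the microglia markers was 0.05. All 11 were detected, with C1qa averaging 143.0 CPM after cocaine and 143.7 CPM after saline. Their part in the interferon values was not tested. In D1 neurons the interferon list also lay mostly below 0, with 5 of 28 members above 0 (median -0.29), against 51.1% of all genes tested. The antigen presentation and complement list had 2 of 15 above 0 there (median -0.25), and the microglia markers 7 of 11 (median 0.04).

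**Figure D3:**
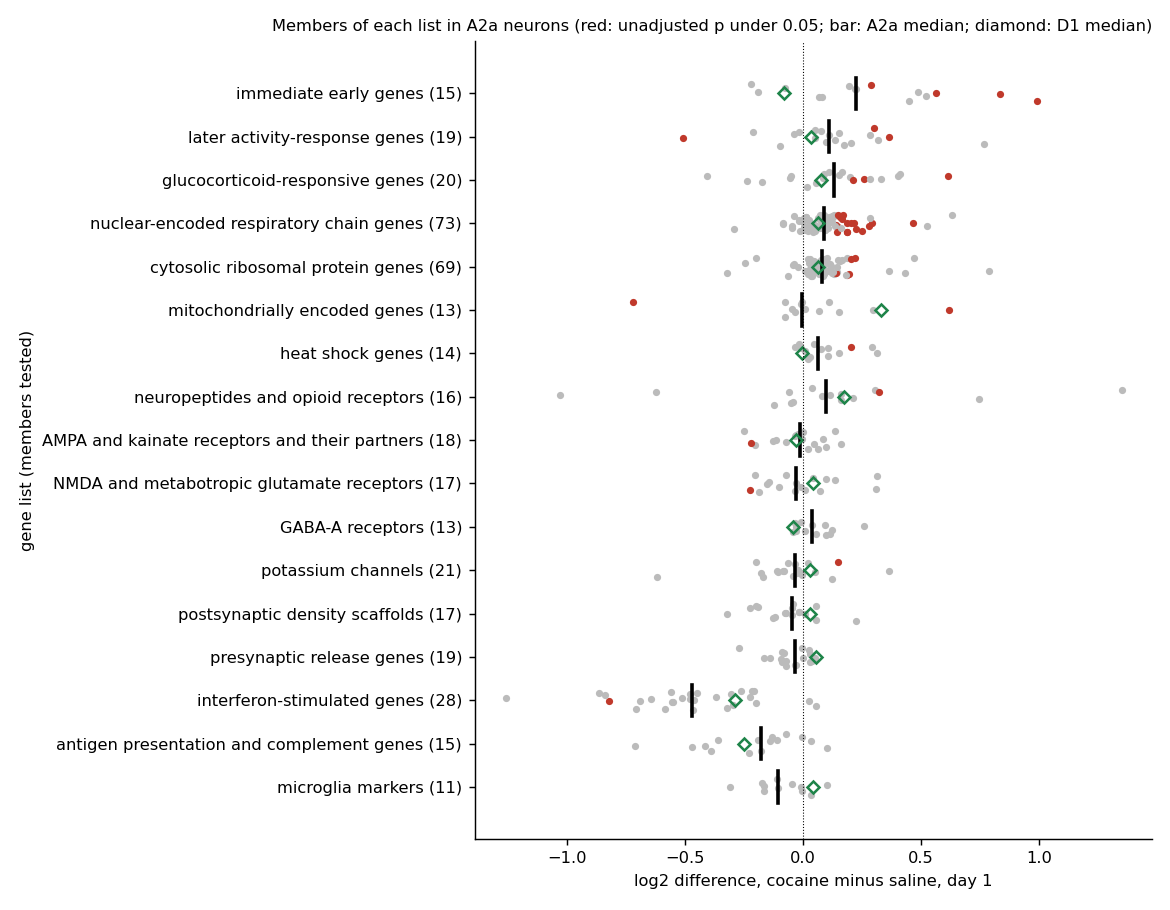
Log2 difference, cocaine minus saline on day 1 (x axis), of each tested member of 17 gene lists (y axis, with the number tested) in A2a neurons. Red points had an unadjusted p under 0.05, the black bar is the A2a median and the green diamond the D1 median. The interferon list has the lowest A2a median (-0.47) and the immediate early genes the highest (0.22).

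**Figure D4:**
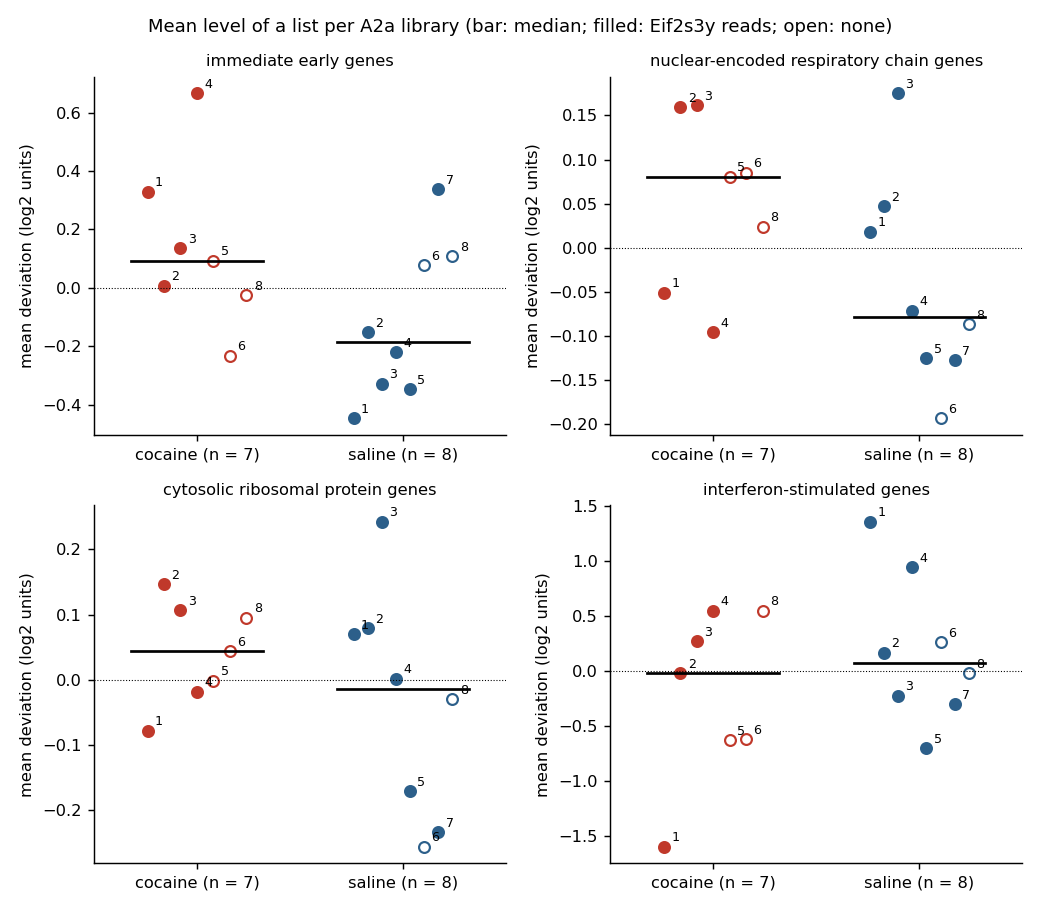
Mean deviation of a list's tested members from their mean over the 15 libraries, in log2 units (y axis), for the 7 cocaine and 8 saline A2a libraries (x axis), with replicate numbers and a bar at each median. Filled points are libraries with Eif2s3y reads and open points are libraries with none. The groups overlap in all 4 lists.

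Of the main receptor and peptide genes named next, all but Gria2 and Cnr1 had log2 differences smaller than their SE. Drd2 was at 0.06 ± 0.13, Adora2a at 0.05 ± 0.15, Drd1 at -0.03 ± 0.15 and Penk at 0.12 ± 0.13 on the log2 scale. The AMPA receptor subunit genes Gria1 and Gria2 were at -0.0051 ± 0.09 and 0.10 ± 0.07, and Gria2 was at 0.05 without saline replicate 3. Grin2b, an NMDA receptor subunit gene, was at -0.0095 ± 0.14, and Grm5, the mGlu5 receptor gene, at -0.03 ± 0.18. For Gria1 the 95% interval of the log2 difference was -0.19 to 0.18. Cnr1, the cannabinoid receptor gene, was at 0.27 ± 0.15. Neuropeptides and opioid receptors were above 0 in 10 of 16 members, with a median of 0.10 (0.04 without cocaine replicate 4). Dopamine signalling genes were above 0 in 10 of 20, with a median of 0.01 (-0.0063 without cocaine replicate 2). Of 18 AMPA and kainate receptor genes and partners, 7 were above 0, and of 17 NMDA and metabotropic receptor genes also 7.

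Pdyn, the dynorphin precursor gene and a marker of D1 neurons, had 164.8 to 263.2 CPM (median 225.5) after cocaine and 126.1 to 236.6 CPM (median 178.5) after saline, a log2 difference of 0.32 ± 0.13 (edgeR unadjusted p = 0.0157, adjusted p = 0.935). The D1 libraries held 849 to 1640 CPM of Pdyn. Of the 7 D1 markers, Pdyn included, 3 were above 0, with a median of -0.02 (0.06 without saline replicate 1). Grm4, the mGlu4 receptor gene, had 73.1 to 107.1 CPM (median 93.7) after cocaine and 95.3 to 121.3 CPM (median 103.8) after saline, a log2 difference of -0.22 ± 0.08. Grik4, a kainate receptor subunit gene, was at -0.22 ± 0.09, and Kcnk1, a potassium channel gene, at 0.15 ± 0.07. GABA-A receptor genes were above 0 in 8 of 13, potassium channels in 5 of 21, postsynaptic scaffolds in 4 of 17 and presynaptic release genes in 6 of 19, with medians between -0.05 and 0.04. The GABA-A median was -0.01 without cocaine replicate 4. Over 28 alternative settings the scaffold median ran from -0.08 to 0.01 and the presynaptic release median from -0.06 to 0.02.

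Members of other lists with an unadjusted p under 0.05 included Hspe1 (mitochondrial chaperonin, 0.20 ± 0.07), Arntl (clock transcription factor, 0.17 ± 0.08), Idi1 (isoprenoid synthesis, 0.17 ± 0.08), Cfl1 (actin severing, 0.12 ± 0.05), Has3 (hyaluronan synthesis, 0.34 ± 0.11) and Mmp14 (matrix protease, -0.60 ± 0.22). The glycolysis genes Eno2 and Pkm lay on opposite sides, at 0.56 ± 0.22 and -0.16 ± 0.06, and Eno2 was at 0.34 without cocaine replicate 1. None of these passed the adjusted threshold in edgeR's test.

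The difference of the cocaine effect between A2a and D1 neurons was tested in the same fit. It called 0 genes (0% of 15683, smallest edgeR adjusted p = 1.00), and 421 genes (2.68%) had an unadjusted p under 0.05. In D1 neurons alone the cocaine contrast called 0 genes (0%, smallest adjusted p = 0.338), with 405 at an unadjusted p under 0.05. Among genes whose mean log2 CPM was 3 or more, Stag1, a cohesin gene, had the smallest p with a higher A2a effect, at 0.45 ± 0.12. In A2a neurons it had 11.4 to 17.9 CPM (median 15.7) with cocaine, against 12.9 to 15.3 CPM (median 14.3) with saline. In D1 neurons it stood at 13.1 ± 1.03 CPM with cocaine, against 16.3 ± 1.67 CPM with saline (mean ± SD of 8 libraries each). Arpc5, Slc39a14, Ptges3l and Chmp2b followed. Cic, a transcriptional repressor gene, had the smallest p with a lower A2a effect, at -0.29 ± 0.09, ahead of Casp9, LOC100363268, Fam193a and Wnk2.

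Keeping cocaine replicate 7 changed the count of calls in A2a neurons. With it, edgeR tested 15580 genes and called 11 (0.0706%), all higher after cocaine, of which 3 had a name. Rpph1, the RNA of ribonuclease P, had 275.6 CPM in replicate 7, against at most 1.06 CPM in the other cocaine libraries and 0.869 CPM in the saline libraries. Its log2 difference was 5.73 with replicate 7 (edgeR adjusted p = 0.0145) and -0.12 without it. Cds2, an enzyme gene of phospholipid synthesis, had 46.2 CPM in replicate 7 and at most 2.39 CPM in the other cocaine libraries and 1.74 CPM in the saline libraries, a log2 difference of 2.44 with it and 0.51 without. LOC120095433, a small nucleolar RNA, had 23.3 CPM in replicate 7, and its difference was 4.61 with it and 0.20 without. The 8 unnamed genes had 130.8 to 3688 CPM in replicate 7. Replicate 7 detected 15736 genes, against 16414 to 17652 in the other cocaine libraries, and its A2a markers summed to 9423 CPM. Grm5 was at 122.6 CPM in it, against 7.07 to 14.5 CPM in the other cocaine libraries, and Grin2b at 184.5 CPM, against 43.2 to 70.3 CPM. With 1 library of this kind, its total cannot be told apart from other properties of that rat or library.

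**Figure D5:**
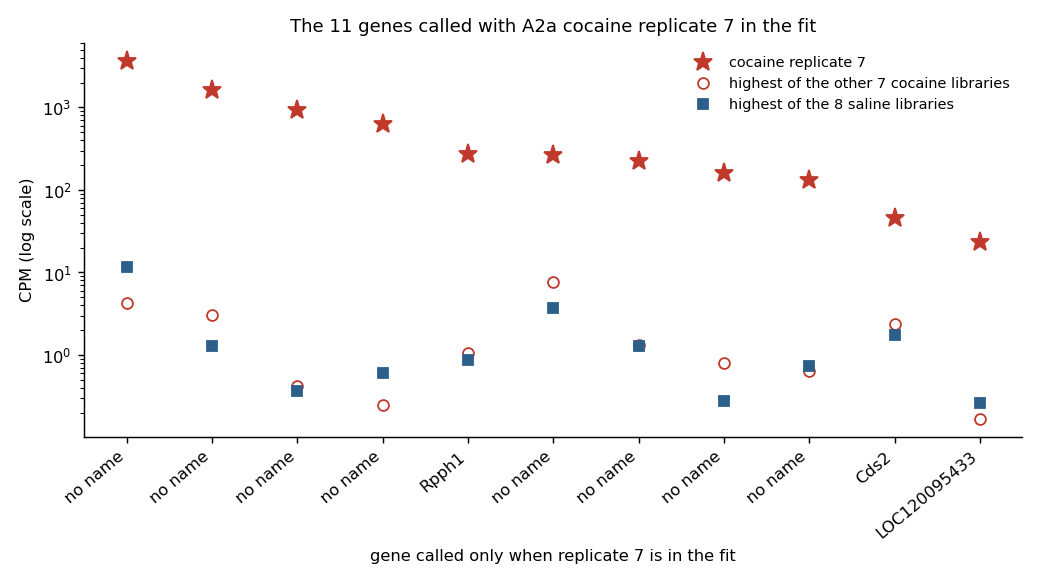
CPM on a log scale (y axis) of the 11 genes called with cocaine replicate 7 in the fit (x axis), showing replicate 7 (star), the highest of the other 7 cocaine libraries (open circle) and the highest of the 8 saline libraries (square). Replicate 7 lies above both in all 11 genes.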

How the data were processed

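RNA was measured by sequencing of ribosome-bound transcripts (TRAP) from A2a and D1 neurons. The authors deposited raw counts per gene for 32883 genes in 48 libraries, of which 20383 have a name in the file. Per the submitters' processing notes the reads passed through bcl2fastq, Trimmomatic, STAR and SAMtools with the Rnor 6.0 build, and no counting tool or strand setting was named in what was read here. Counts were fitted with edgeR 4.0.16 (R 4.3.3; TMM, filterByExpr with a minimum count of 10, robust quasi-likelihood F test, 1 term per group) over 47 libraries, and p-values were adjusted by Benjamini-Hochberg over all genes tested at a threshold of 0.05. DESeq2 1.42.0 and limma-voom 3.58.1, other normalizations and filters, and leaving out libraries were alternatives. CPM used TMM-scaled totals of tested genes. List means used log2(CPM + 0.5). The steps were tested on simulated data. Members and gene lists were chosen with earlier results of these data known, so no list was tested. Genes named in the text were taken by rule: the 10 smallest p in each direction among named genes of mean log2 CPM of at least 3, the 6 largest differences in each direction among those of unadjusted p under 0.05, up to 3 members per list at unadjusted p under 0.05, all called genes, a fixed panel, and the 5 smallest p of the A2a and D1 difference in each direction. Other list members, Phax, Dlx5 and Patz1 are named besides, chosen after their values were seen. A gene that the rule named is not reported here. None of the 56 pairs of libraries examined held identical counts.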

Additional observations from a re-analysis of the deposited data

Results flagged for a closer look

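In groups of 7 or 8 libraries, a value was singled out where it stood apart from the rest of its own group by Dixon's criterion. Of 238 groups examined, 16 (6.72%) held such a value, where chance gives about 1 in 20. Their causes were not tested.

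Among single genes, cocaine replicate 1 was high for RGD2320734 (17.4 CPM) and ATP8 (280.9 CPM), cocaine replicate 2 for LOC100363268 (13.5 CPM) and cocaine replicate 4 for Bdnf (0.29 CPM), and cocaine replicate 6 was low for Wdr43 (24.9 CPM). In the saline group, replicate 1 was high for Dhx58 (31.5 CPM), replicate 2 for Bad (74.5 CPM), replicate 3 for Grin2b (89.2 CPM), replicate 4 for ND4 (81.1 CPM) and replicate 7 for Fos (13.1 CPM).

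Among list means, cocaine replicate 4 was low for D1 markers (-0.24) and for markers shared by both medium spiny neurons (-0.18) and high for neurotrophin and growth factor genes (0.20), and cocaine replicate 6 was high for astrocyte markers (0.19). Cocaine replicate 7 stood apart in its total, 5.29 M counts. Cocaine replicate 1 stood apart in its share of mitochondrially encoded counts, 3.42%, against 1.68% to 2.37% in the other 6 cocaine libraries of the main test.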

How the results depend on the processing

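The A2a comparison called 0 genes with DESeq2, limma-voom, RLE size factors, no filter, a minimum count of 50, the 2 A2a groups alone, with the first or middle description number or (chosen after seeing the data) the Eif2s3y level as a term, and in each of the 15 fits without 1 library (0 to 0). With cocaine replicate 7 it called 11, and the A2a and D1 difference called 1. Within middle number 89 the A2a comparison called 0, the A2a and D1 difference called 1 gene and the D1 contrast 2. Without the filter 1740 genes had an unadjusted p under 0.05.

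Replicate numbers did not pair the samples: deviations of same-numbered libraries correlated at -0.39 to 0.31 over 7 pairs, 4 over 0.1, and 2 of 7 best with their own number. A fit with the replicate block called 1 gene, ND4, at -0.73 (edgeR adjusted p = 0.0133) with 7 pairs, and 1 at -0.70 (edgeR adjusted p = 0.0113) with 8 pairs.

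The following log2 differences of single genes changed sign. With replicate 7: Rpph1 5.73, Grin2b 0.29, Grm5 1.05, Fkbp5 -0.017 and Gria1 0.17, and in the 2 A2a groups alone with it (0 genes called) 5.70, 0.31, 1.06, -0.015 and 0.18. With limma-voom: Grin2b 0.0046 and Gria1 0.0012. With the replicate block of 7 pairs: Grm5 0.037 and Gria1 0.042, and of 8 pairs: Rpph1 0.58, Grin2b 0.19, Grm5 0.37, Fkbp5 -0.011 and Gria1 0.14. With the middle number as a term: Fkbp5 -0.00238. Within number 89: RGD1359290 0.013, Grin2b 0.12 and Fkbp5 -0.018. With the first number as a term: Gria1 0.00316. Leaving out 1 library at a time gave Rpph1 -0.34 to 0.11, Grin2b -0.056 to 0.097, Grm5 -0.12 to 0.053, Fkbp5 -0.015 to 0.062, Drd1 -0.085 to 0.017, Gria1 -0.040 to 0.044 and Bdnf -0.55 to 1.41. The cause was not tested. Several list medians changed sign as well. Over 28 alternative settings, that of endoplasmic reticulum stress genes ran from -0.048 to 0.051 and that of postsynaptic scaffolds from -0.085 to 0.011. The median of presynaptic release genes ran from -0.059 to 0.022, and that of NMDA and metabotropic receptor genes from -0.11 to 0.080. A fit with the Xist level as a term was not run, since no gene of the file carries that name.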

Other observations

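Of the mitochondrially encoded genes, 6 of 13 were above 0 in A2a neurons, against 47% of all genes tested, with a median log2 difference of -0.0034. In D1 neurons 12 of 13 were above 0, against 51.1% of all genes tested, with a median of 0.33. The difference between the A2a and D1 effects was at an unadjusted p under 0.05 in 1 member, against 2.68% of all genes tested. D1 cocaine replicate 1 held 2.57% mitochondrially encoded counts, against 1.15% to 1.75% in the other D1 cocaine libraries. D1 libraries were not left out in turn, so how far the D1 values rest on it was not tested. The A2a values rest on single libraries: with 1 library left out, 3 to 11 of the 13 were above 0, and the median was -0.13 without cocaine replicate 1 and 0.06 without saline replicate 4. Endoplasmic reticulum stress genes were above 0 in 13 of 19 members in A2a neurons (median 0.02, and 0.0050 without saline replicate 3). Over 28 alternative settings that median ran from -0.05 to 0.05, with 6 to 15 members above 0. In D1 neurons 4 of the 19 were above 0 (median -0.06), against 51.1% of all genes tested. Interneuron markers were below 0 in 7 of 8 members in A2a neurons, with a median of -0.09 and summed levels of 224.7 to 291.8 CPM after cocaine and 179.2 to 346.3 CPM after saline. That median was -0.17 without cocaine replicate 4 and -0.03 without saline replicate 1.

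The unnamed gene ENSRNOG00000010657 had a log2 difference of 2.43 ± 0.52 (edgeR adjusted p = 0.166) at 0.0833 to 0.681 CPM after cocaine and 0.0253 to 0.0934 CPM after saline. The unnamed gene ENSRNOG00000056747 was at -5.43 ± 1.16 (edgeR adjusted p = 0.166), with 73.0 and 9.32 CPM in saline replicates 8 and 5 and at most 0.489 CPM in the 7 cocaine libraries. RGD1359290, low in most A2a libraries, averaged 46.1 ± 14.3 CPM in D1 cocaine and 45.1 ± 12.7 CPM in D1 saline libraries (SD, n = 8 each), and cocaine replicate 7 of the A2a group held 31.4 CPM of it.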
